A study of Oryctolagus cuniculus with 6 samples.

Results

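Rabbit blastocysts that had been cryopreserved and transferred into recipient females were compared with untreated blastocysts of the same age, taking vitrified and slowly frozen embryos as 1 treated group. All 6 arrays of the series entered the comparison: 3 set vitrified and 3 set frozen embryos against untreated embryos on the same array. The members were thus all 6 of 6 arrays, and the value of a probe was the log2 ratio of treated over control, averaged with equal weight for both methods and with a term for the dye. Of 43603 non-control probes, 30767 gave enough signal to be tested, and their named part covered 8121 genes.

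All embryos were 6 days old and of the New Zealand White breed. Per the labels, vitrified embryos were held last in 20% dimethyl sulphoxide (DMSO) with 20% ethylene glycol and plunged into liquid nitrogen. Frozen embryos were brought stepwise to 1.5 M DMSO and cooled at 0.3 °C per minute after seeding of ice. Both kinds were then transferred, and viable embryos were collected. Control embryos developed in vivo with neither step, so that the effect of cooling, of the cryoprotectant, of the transfer and of the selection of viable embryos cannot be told apart here. The labels give 3 biological replicates of each kind and do not say how many embryos made up an extract. Arrays with the same replicate number carried the same control extract, per the labels, so that the 6 ratios rest on 3 control extracts. The vitrified and frozen ratios share these controls and are given side by side below, not as support for each other.

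Cryopreservation exposes cells to osmotic stress, cryoprotectant and, in slow freezing, to ice outside the embryo. The blastocyst at this age is a fluid-filled sphere whose outer epithelium, the trophectoderm, pumps the cavity and later forms the placenta. The inner cell mass gives rise to the embryo proper, and an endoderm layer that lines the cavity secretes serum proteins. The rabbit blastocyst expands free in the uterine fluid before it attaches, and uteroglobin is a main protein of that fluid.

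Several of the probes with the largest and steadiest differences carry no gene symbol, so their target sequences are given here as the array files hold them. The positions are those in the files, whose genome build is not given in the sources used here. The place of a probe in its transcript was not analysed here. OTUD6A is a deubiquitinating enzyme of the ovarian tumour family, and its single probe lies at chrX:48624883-48624942 on the plus strand. A_04_P034922 has no position in the files. A_04_P006396 lies at chr12:26552410-26552469 on the plus strand and A_04_P046082 at chr14:91872228-91872287 on the minus strand. Of A_04_P006396, which holds a stop codon in each forward frame, the first 30 of 60 bases are shown. The following 4 probes were higher in treated embryos.
OTUD6A: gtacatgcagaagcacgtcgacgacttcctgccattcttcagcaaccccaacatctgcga
A_04_P034922: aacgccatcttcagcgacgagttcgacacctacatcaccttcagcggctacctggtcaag
A_04_P006396: tggaagagttctagggggtaaacttccttg
A_04_P046082: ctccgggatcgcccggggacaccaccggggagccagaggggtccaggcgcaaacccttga

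The largest falls among probes without a symbol came from 2 places. A_04_P102787 and A_04_P011866 lie on the minus strand at chr12:99901844-99901903 and chr12:99901799-99901858 and share 15 bases, given in capitals, so that they are not separate evidence. A_04_P071512 and A_04_P047114 belong to the gene LOC100339512, which the files describe as pancreatic lipase-like, at chr18:64122783-64122842 and chr18:64119629-64119688 on the plus strand. They share no stretch of 12 bases.
A_04_P102787: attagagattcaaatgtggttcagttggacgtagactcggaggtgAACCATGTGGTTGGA
A_04_P011866: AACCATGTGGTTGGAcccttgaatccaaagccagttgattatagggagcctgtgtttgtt
A_04_P071512: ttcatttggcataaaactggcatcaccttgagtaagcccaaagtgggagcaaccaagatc
A_04_P047114: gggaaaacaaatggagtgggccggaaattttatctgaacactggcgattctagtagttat

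In the green channel 44.7% to 58% of spots were well above background, in the red channel 64.2% to 74.5%, with no more than 11 saturated spots per array. The median of all genes stood between -0.043 and 0.028 on the 6 arrays, and the spread over genes (SD) was lowest on vitrified replicate 3, at 0.221, against 0.308 to 0.358 on the other 5. Trophoblast markers were present: GATA2, GATA3, TFAP2A, TFAP2C and KRT8, 5 of 7 listed, were measured and well above background in all 12 channel measurements. Of the inner cell mass and epiblast markers, POU5F1 and DPPA5 were measured, 2 of 5, and both were well above background throughout. NANOG, SOX2 and CDX2 were not analysed here, as no tested probe carried their symbols. Of 6 white blood cell markers only CD14 and CD68 were measured, and neither was well above background in all 12 channel measurements.

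The pooled comparison asked what embryos of both methods had in common against untreated embryos. The test was limma's moderated test with Benjamini-Hochberg adjustment over all 30767 probes and a threshold of 0.05. Of these probes 181 passed (0.588%), 125 of them higher (0.406%) and 56 lower (0.182%) in treated embryos. Without adjustment 6663 probes (21.7%) had a p under 0.05. With each gene read from its brightest probe, 52 of 8121 genes passed (0.64%), 35 higher (0.431%) and 17 lower (0.209%). The smallest change among them was 0.47 on the log2 scale, and 7 exceeded 2-fold. Probes of a gene often overlap, so a count of its probes past the test is not separate evidence. With 0.64% of genes called, a gene list of the size used below would hold few calls or none, so counts of calls in lists are description only. Most adjusted p-values lay close under the threshold, and only 3 probes had one under 0.01, all higher.

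The number of calls depended strongly on the arrays and the model. It was 7 without vitrified replicate 2, 4 without frozen replicate 2 and 6 without frozen replicate 3, but 705 without vitrified replicate 3 and 814 without frozen replicate 1. Replicate 2 holds the swapped dyes, so each of its arrays has a weight of 25% in the pooled value and every other array 12.5%. A random block for the shared replicate number gave 428 calls, and averaging the arrays of a number first gave 1859. The averaged fit has only 3 units and fewer residual degrees of freedom than the main fit's 3, so its larger count is not stronger evidence. Letting the prior spread follow intensity, with robust estimation, left 0 calls, so every call below was lost under that setting. The smallest adjusted p in limma was then 0.219, and 6329 probes had an unadjusted p under 0.05. All 181 probes kept their sign in each alternative in which they were tested. They were picked on the same arrays, which favours a stable sign, so this is no separate support. With median centring in place of loess 36.5% of the calls were higher, against 69.1% as reported. The fit treats the 6 ratios as independent although they rest on 3 control extracts. The correlation within a replicate number that limma estimated for the block was -0.103. The dye term takes up what both arrays of replicate 2 share, so this estimate rests on replicates 1 and 3. It does not show that the ratios are independent.

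**Figure D1:**
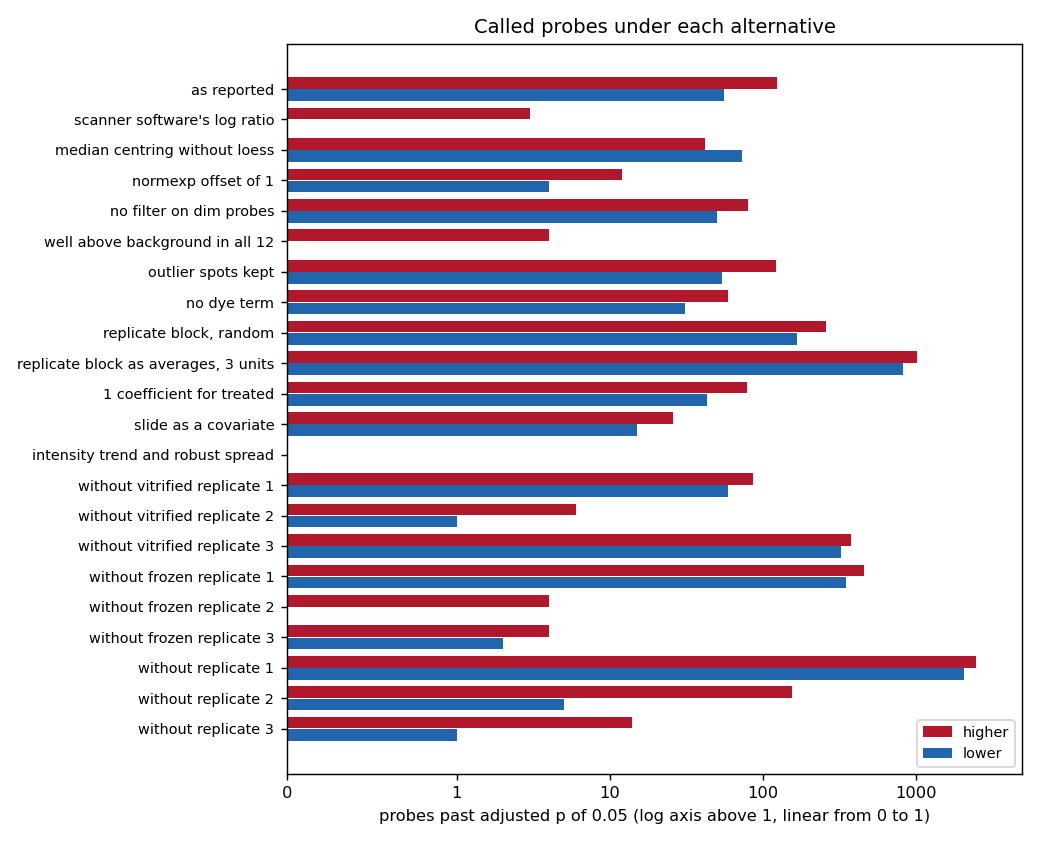
Number of probes past an adjusted p of 0.05 in limma, higher (red) and lower (blue), for the values as reported and for each alternative (horizontal axis on a log scale above 1 and linear from 0 to 1). The count ran from 0 with an intensity trend and robust spread to 4564 without both arrays of replicate 1, against 181 as reported. The fit without replicate 2 had no dye term.

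OTUD6A rose 1.60 ± 0.078 (log2, SE of the fit, 6 arrays, adjusted p = 0.00167). Its ratios were 1.25, 1.50 and 1.58 on vitrified arrays 1 to 3 and 1.76, 1.82 and 1.57 on frozen arrays 1 to 3. The 6 arrays thus lay within a narrow band, all far above 0. On 4 of 6 arrays its control channel was well above background, which limits how exactly the size of the change is known. The call held in 19 of 20 alternatives, with values from 1.54 to 2.71.

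A_04_P034922 rose 1.96 ± 0.11 (adjusted p = 0.00167), the highest value of any probe with an adjusted p under 0.01. Its ratios were 1.38, 1.65 and 1.85 in vitrified and 1.84, 2.67 and 1.95 in frozen embryos. Both channels were well above background on all 6 arrays, so that this change was measured on both sides. It passed in 19 of 21 alternatives. A_04_P006396 rose 1.34 ± 0.071 (adjusted p = 0.00167), with ratios of 1.09, 1.01 and 1.28 in vitrified and 1.63, 1.58 and 1.51 in frozen embryos. The vitrified and frozen values did not overlap, but the difference did not pass in limma. The control channel was well above background on 1 of 6 arrays. A_04_P046082 rose 1.05 ± 0.085 (adjusted p = 0.0182), and its ratios were wider, from 0.50 on frozen replicate 1 to 1.57 on frozen replicate 2.

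Of the 181 probes, 63 have no symbol, 46 higher and 17 lower. By shared sequence, gene number or position they form 31 groups, 20 of which hold 1 probe. All 5 probes of LOC100349021, described in the files as glutathione-S-transferase omega 1, an enzyme that handles glutathione, rose between 1.22 and 1.31. They start between 52198513 and 52198518 on chromosome 18 and are near copies of each other. For A_04_P099721 of this gene the ratios were 2.06, 0.22 and 0.80 in vitrified and 2.00, 1.78 and 1.58 in frozen embryos. Vitrified replicate 2 was thus far below the 4 highest arrays. Of the probes of LOC100328967, which the files describe as a class I gene of the major histocompatibility complex, whose products present peptides to T cells, 5 of 6 rose between 1.04 and 1.06. Probes of such multigene families can pick up RNA of related genes. Except for A_04_P013026, the LOC100328967 probes that rose start within 20281077 to 20281080 on chromosome 12 and are near copies. A further 8 probes within 33276760 to 33277161 (starts) on chromosome X or sharing sequence with them rose between 0.65 and 1.15.

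On the other side, A_04_P102787 fell by 1.49 (SE 0.14, adjusted p = 0.0289). Its ratios were -1.57, -1.33 and -1.38 in vitrified and -1.41, -2.06 and -0.80 in frozen embryos, all below 0. The overlapping A_04_P011866 fell by 1.20 (SE 0.13), with ratios from -1.64 on frozen replicate 2 to -0.53 on frozen replicate 3. All 6 probes of the lipase-like LOC100339512 fell, by 0.86 to 1.54 in the pooled fit, and 5 of them start within a few bases of each other. Without both arrays of replicate 2 the values were between -0.81 (A_04_P071512) and -0.32 (A_04_P047115). The treated sample is in Cy5 on all arrays left there, so that fit had no dye term and mixes dye with treatment. For A_04_P071512 and A_04_P047115 the fitted dye terms over all 6 arrays were 0.73 and 0.54. No call of the 6 probes was left in that fit, without either single array of replicate 2, or without the dye term. For A_04_P071512 the ratios were -0.76, -1.83 and -0.62 in vitrified and -0.44, -2.69 and -1.41 in frozen embryos. Both arrays of replicate 2, which hold the swapped dyes, were the lowest of their method for this probe.

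CASQ2, the cardiac calsequestrin that stores calcium in the sarcoplasmic reticulum, rose 1.11 ± 0.12 (adjusted p = 0.0388). Its ratios were 0.60, 0.96 and 0.78 in vitrified and 1.92, 1.02 and 1.59 in frozen embryos. For this brightest probe every frozen array lay above every vitrified array, and all 6 were above 0. The difference between the methods did not pass in limma (adjusted p = 0.592). How often the methods fail to overlap over all genes or probes was not counted, here or for the other cases given. Of the 3 CASQ2 probes 2 passed the pooled test, and the lowest stood at 0.54. On the other probe that passed the methods overlapped, with vitrified replicate 3 at 0.997 and frozen replicate 2 at 0.43. They did not overlap on the lowest probe. ACTN1, an actin-crosslinking protein, rose 0.67 ± 0.10 (adjusted p = 0.0471) and TUBE1, the epsilon-tubulin of centrioles, rose 0.76 ± 0.097 (adjusted p = 0.0428) with 3 of 3 probes past the test. NCKAP1L, a part of the WAVE complex of blood cells, rose 0.53, with a control channel well above background on 1 of 6 arrays.

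NT5DC3, a member of the 5'-nucleotidase domain family, rose 1.04 ± 0.090 (adjusted p = 0.0241). Its ratios were 0.82, 0.69 and 0.77 in vitrified and 1.59, 1.37 and 1.03 in frozen embryos. The methods did not overlap for this gene either, with a difference of vitrified minus frozen of -0.57 (95% interval -0.97 to -0.17, adjusted p = 0.592). NAA11, an amino-terminal acetyltransferase, rose 0.75 ± 0.099 (adjusted p = 0.0429). Its ratios spread from 0.34 on vitrified replicate 2 to 1.19 on vitrified replicate 1. C16H19orf53 rose 0.74 ± 0.11 and ADAMTSL1, a secreted protein of the ADAMTS-like family, rose 0.68 ± 0.096.

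**Figure D2:**
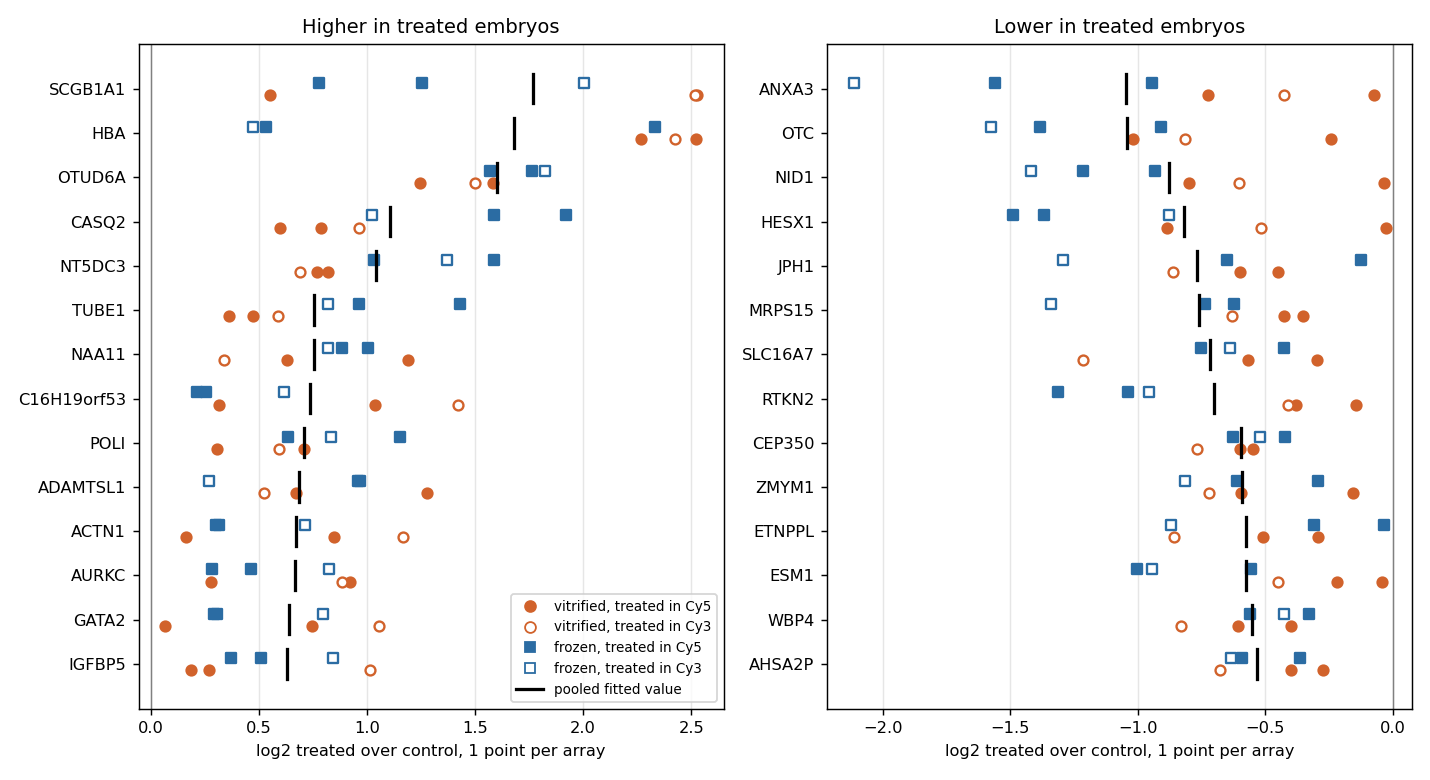
Log2 ratio of treated over control on each array for 14 of the genes with the largest rise (left) and 14 of those with the largest fall (right) that passed the pooled test with the same sign on 6 of 6 arrays. Circles are vitrified and squares frozen arrays, open symbols are the arrays with the treated sample in Cy3, and black bars are the pooled fitted values; OTUD6A and NT5DC3 stayed well above 0 on all arrays, while HBA and ANXA3 differed widely between arrays.

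POLI, a polymerase that copies past DNA damage, rose 0.71 ± 0.098 (adjusted p = 0.0438) on 2 of 2 probes, with ratios from 0.31 on vitrified replicate 1 to 1.15 on frozen replicate 1. A_04_P084174 of LOC100354961, which the files call DNA polymerase iota, ends 1 base before a POLI probe starts and so stands for the same locus, and it rose by 0.80. APEX1, the main endonuclease of base excision repair, rose 0.52, with ratios from 0.32 to 0.80, and 1 of its 5 overlapping probes passed. AURKC, the Aurora kinase of meiosis and early cleavage, rose 0.67 ± 0.099 (adjusted p = 0.0461) on 5 of 5 probes. Its ratios were 0.92, 0.88 and 0.28 in vitrified and 0.46, 0.82 and 0.28 in frozen embryos, so that both arrays of replicate 3 were lowest. ASZ1, a germ cell protein of the piRNA pathway, rose 0.61 ± 0.094, but stood at 0.10 in vitrified and 1.12 in frozen embryos, and vitrified replicate 3 was at -0.085. Of its 2 probes 1 passed. The list of p53 targets and DNA damage genes, which does not hold these members, had 8 of 16 measured genes above 0, a median of 0.0064 and 0 calls.

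Single developmental regulators passed the test in each direction. GATA2, a transcription factor of the trophoblast, rose 0.64 ± 0.10 (adjusted p = 0.0491). Its ratios were 0.74, 1.05 and 0.065 in vitrified and 0.31, 0.79 and 0.29 in frozen embryos. All 6 were above 0, and vitrified replicate 3 was close to it. The other GATA2 probe did not pass limma's test, at 0.58 (adjusted p = 0.0707), and was at -0.015 on vitrified replicate 3. Of 12 measured trophectoderm genes 10 were above 0, with a median of 0.11, against 49.8% and a median of -0.00036 over all genes tested. GATA2 was its only call. TFAP2A was at 0.50 (adjusted p = 0.0803), KRT8 at 0.31 (adjusted p = 0.203) and GATA3 at 0.30 (adjusted p = 0.152). SATB1, a chromatin organiser, rose 0.57 ± 0.082 and TRIM28, a corepressor that silences retroelements and protects imprints, rose 0.60 ± 0.090 (adjusted p = 0.0461).

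HESX1, a homeobox repressor of the anterior embryo, fell by 0.82 (SE 0.13, adjusted p = 0.0491). Its ratios were -0.88, -0.52 and -0.027 in vitrified and -1.49, -0.88 and -1.37 in frozen embryos. Vitrified replicate 3 was near 0, and 1 of its 5 probes passed. In the pluripotency list 6 of 9 measured genes were below 0, with a median of -0.14 and 0 calls. POU5F1, the core pluripotency factor, was at -0.45 ± 0.16 (adjusted p = 0.169), and its ratios crossed 0, from -0.94 on frozen replicate 1 to 0.63 on vitrified replicate 3. TBX3 was at -0.47 (adjusted p = 0.0911) and OTX2 at -0.31 (adjusted p = 0.132). The 3 genes of the list above 0 reached at most 0.18. DPPA5, the measured inner cell mass marker beside POU5F1, was above 0 in the pooled fit. Of the gastrulation signals, DKK1, an inhibitor of Wnt, was at -0.88 and BMP2 at -0.46, and 0 of 11 passed.

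The endoderm and yolk sac list stood lowest of the 34 lists. Of its 13 measured genes 9 were below 0, with a median of -0.29, and 0 passed. The iron carrier TF was at -0.78, the retinol carrier RBP4 at -0.71 and the apolipoproteins APOA1 and APOB at -0.61 and -0.50, while DAB2, an endocytic adaptor, was at 0.57. The list's median was -0.055 in vitrified and -0.59 in frozen embryos. It was -0.57 on slide 1, which holds vitrified replicate 1 and frozen replicates 1 and 2, and 0.030 on slide 2. By array the medians were -0.50, 0.19 and 0.29 in vitrified and -0.52, -0.57 and -0.66 in frozen embryos, so that the vitrified arrays of slide 2 were above 0. The part of slide and method in this pattern was not tested. The summed signal of the measured endoderm markers, GATA4, APOA1, RBP4 and TF, ranged from 6920 to 13670 in control and from 3385 to 12070 in treated channels. In the pooled fit GATA4, a transcription factor, was above 0, while the median of these 4 markers was -0.66. In such bulk extracts fewer cells of a type and less RNA per cell cannot be told apart.

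**Figure D3:**
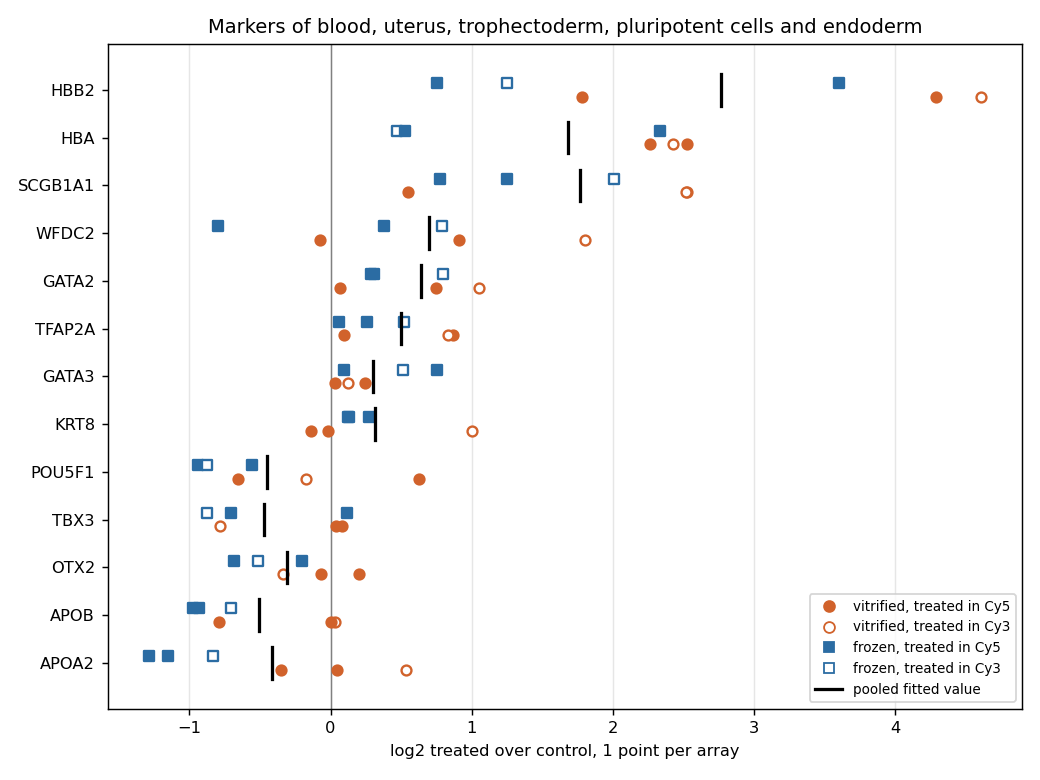
Log2 ratio of treated over control on each array for markers of blood (HBB2, HBA), uterine secretion (SCGB1A1, WFDC2), trophectoderm (GATA2, TFAP2A, GATA3, KRT8), pluripotent cells (POU5F1, TBX3, OTX2) and endoderm (APOB, APOA2). DPPA5 and GATA4, each above 0 in the pooled fit, are not shown. Circles are vitrified and squares frozen arrays, open symbols have the treated sample in Cy3, and black bars are pooled values; HBB2 and HBA were above 0 on 6 of 6 arrays, while POU5F1 and APOA2 crossed 0.

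The largest named rises were of genes of uterine secretion and blood. SCGB1A1, the uteroglobin of the rabbit uterus, rose 1.77 ± 0.24 (adjusted p = 0.0431). Its ratios were 2.53, 2.52 and 0.55 in vitrified and 1.25, 2.00 and 0.78 in frozen embryos. All 6 were above 0, and both arrays of replicate 3 were lowest. Of its 10 probes 5 passed, and they ranged from 1.26 to 1.77. WFDC2, a secreted protein of the whey acidic protein family, was at 0.70 ± 0.19 (adjusted p = 0.105), with vitrified replicate 1 and frozen replicate 3 below 0. The other 8 measured genes of the uterine list lay between -0.27 (AGR2) and 0.14 (SCGB3A1). The list's median was 0.021, with 7 of 10 above 0. The summed signal of the uterine markers SCGB1A1, WFDC2 and PIGR ranged from 1419 to 3420 in control and from 1452 to 6985 in treated channels. PAEP, MUC1 and FOXJ1 had no tested probe. Whether uterine material adhered to some extracts was not tested.

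HBA, the alpha globin, rose 1.68 ± 0.23 (adjusted p = 0.0436) on 3 of 3 probes. Its ratios were 2.27, 2.43 and 2.52 in vitrified and 2.33, 0.47 and 0.53 in frozen embryos. The vitrified arrays and frozen replicate 1 stood close together, and frozen replicates 2 and 3 were far lower. HBB2, a beta globin, had the highest pooled value of all genes, 2.77 ± 0.48, and did not pass (adjusted p = 0.0618), though 1 of its 2 probes did. Its ratios were 1.78, 4.61 and 4.29 in vitrified and 3.60, 1.25 and 0.76 in frozen embryos. ALAS2, the first enzyme of haem synthesis in red cells, was at 0.51 and SLC4A1, the anion exchanger of their membrane, at -0.093. The summed signal of the red blood cell markers ranged from 2815 to 11650 in control and from 4398 to 162200 in treated channels. Even the control sums of arrays said to share an extract differed, with 11650 on vitrified replicate 2 and 4430 on frozen replicate 2. The part of blood in these values was not tested. Of the 10 measured genes of the blood and immune list 7 were above 0, with a median of 0.15, and HBA was its only call.

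IGFBP5, which binds insulin-like growth factors, rose 0.63 ± 0.075 (adjusted p = 0.0388). Its ratios were 0.19, 1.01 and 0.27 in vitrified and 0.37, 0.84 and 0.51 in frozen embryos, with both arrays of replicate 2 highest. STC1, a secreted glycoprotein hormone, rose 0.62 ± 0.077 and the adhesion receptor ADGRF5 rose 0.58 ± 0.066. ADGRF5 had the narrowest set of ratios of these genes, from 0.47 to 0.63, and stood at 0.59 in vitrified and 0.58 in frozen embryos. SAA3, an acute-phase serum amyloid, was not well above background in the control channel of any array and was at least 1.27-fold higher (adjusted p = 0.0431). That bound sets the treated mean against the lowest signal counted as well above background, or the control's own signal where higher.

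ANXA3, a calcium-dependent membrane-binding annexin, fell by 1.05 (SE 0.14, adjusted p = 0.0431) on 4 of 4 probes. Its ratios were -0.72, -0.43 and -0.073 in vitrified and -0.95, -2.11 and -1.56 in frozen embryos. Every frozen array lay below every vitrified array, and the methods' values were -0.48 and -1.61. The difference between them did not pass (1.13, 95% interval 0.51 to 1.75, adjusted p = 0.562). NID1, nidogen of the basement membrane, fell by 0.88 (SE 0.11, adjusted p = 0.0428), with vitrified replicate 3 at -0.035 and the other 5 arrays between -1.42 and -0.60. Its other probe did not pass. ESM1, a secreted proteoglycan, fell by 0.58 on 5 of 5 probes. They start within 70962822 to 70962826 on chromosome 11 and so overlap. Of 16 measured genes of extracellular matrix and integrins 11 were below 0, with a median of -0.054.

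Among metabolic genes, OTC, the urea cycle enzyme that joins carbamoyl phosphate to ornithine, fell by 1.04 (SE 0.12, adjusted p = 0.0388). It did so on 3 of 3 probes, which overlap. Its ratios were -1.02, -0.82 and -0.24 in vitrified and -0.91, -1.57 and -1.38 in frozen embryos. SLC16A7, a carrier of pyruvate and lactate, fell by 0.72 (SE 0.10), lowest on vitrified replicate 2 at -1.21, while its other probe was at -0.27 (adjusted p = 0.3) and above 0 on 2 arrays. ETNPPL, which breaks down phosphoethanolamine, fell by 0.58. ACSL6, which activates long-chain fatty acids, rose 0.66 ± 0.083 (adjusted p = 0.0428) on 5 of 5 probes although vitrified replicate 3 was at -0.11. FBP2, an enzyme of gluconeogenesis, rose 0.57 ± 0.085 in the pooled fit, but its ratios were -0.11, 0.58 and -0.31 in vitrified and 0.92, 1.11 and 0.71 in frozen embryos. SHMT2, the mitochondrial enzyme that moves a carbon from serine to folate, rose 0.51 ± 0.077 (adjusted p = 0.0471), and all 6 of its ratios were above 0. The glycolysis list had 14 of 20 measured genes below 0, with a median of -0.049, and the list of fatty acid oxidation and lipid storage had 13 of 20 above 0, with a median of 0.033.

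MRPS15, a protein of the mitochondrial ribosome, fell by 0.76 (SE 0.076, adjusted p = 0.0388) on 5 of 5 probes. Its ratios were -0.43, -0.63 and -0.35 in vitrified and -0.74, -1.34 and -0.62 in frozen embryos, all well below 0. Of the 15 measured mitochondrial ribosome genes 12 were below 0, with a median of -0.064, and MRPS15 was the only one past the test. MRPL1 was at -0.39 and MRPL47 at -0.32. In the cytosolic ribosome 6 of 9 were above 0, with a median of 0.070 and 0 calls.

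RTKN2 fell by 0.70 (SE 0.082), with vitrified arrays between -0.41 and -0.15 and frozen arrays between -1.31 and -0.96. JPH1, a junctophilin that tethers membranes in muscle, fell by 0.77 (SE 0.10), on 2 of 7 probes. CEP350, a centrosomal protein, fell by 0.60 (SE 0.070, adjusted p = 0.0388) with ratios from -0.77 to -0.42, and its other probe stood at -0.044. NUF2, a kinetochore protein, fell by 0.47 (SE 0.066) on 3 of 3 probes and had ratios from -0.59 to -0.37, the narrowest of the genes that fell. MAP3K8 and PPP1CC, a kinase and a phosphatase subunit, rose 0.55 and 0.52. The cell cycle list had 11 of 22 measured genes above 0, a median of 0.013 and 0 calls.

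The remaining genes that rose past the test were CTSF (0.62), CA4 (0.62), ACP6 (0.61), C15H10orf90 (0.60), VKORC1 (0.57), XPNPEP1 (0.53) and HINT2 (0.48), and those that fell were ZMYM1 (-0.59), WBP4 (-0.55), AHSA2P (-0.53) and ARHGAP28 (-0.52). The other probe of CTSF stood at 0.24 and the lowest of 3 of ZMYM1 at -0.24, neither past the test. CA4, a carbonic anhydrase at the cell surface, was below 0 on vitrified replicate 1, at -0.13. In all, 30 of the 35 genes that rose and 17 of the 17 that fell had the same sign on 6 of 6 arrays. They were picked on the same 6 ratios, which favours 1 sign, so this count and the array medians below are description only. Over all genes tested 449 were above 0 on 6 of 6 arrays (5.53%) and 387 below (4.77%), and over all probes 1704 (5.54%) and 1423 (4.63%). The median of the 35 genes that rose was 0.60, 0.71 and 0.32 on the vitrified and 0.58, 0.82 and 0.51 on the frozen arrays. For the 17 that fell it was -0.59, -0.68 and -0.27 on the vitrified and -0.59, -0.88 and -0.71 on the frozen arrays. Vitrified replicate 3 thus had the smallest ratios in both directions, as it had the smallest spread over all genes.

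**Figure D4:**
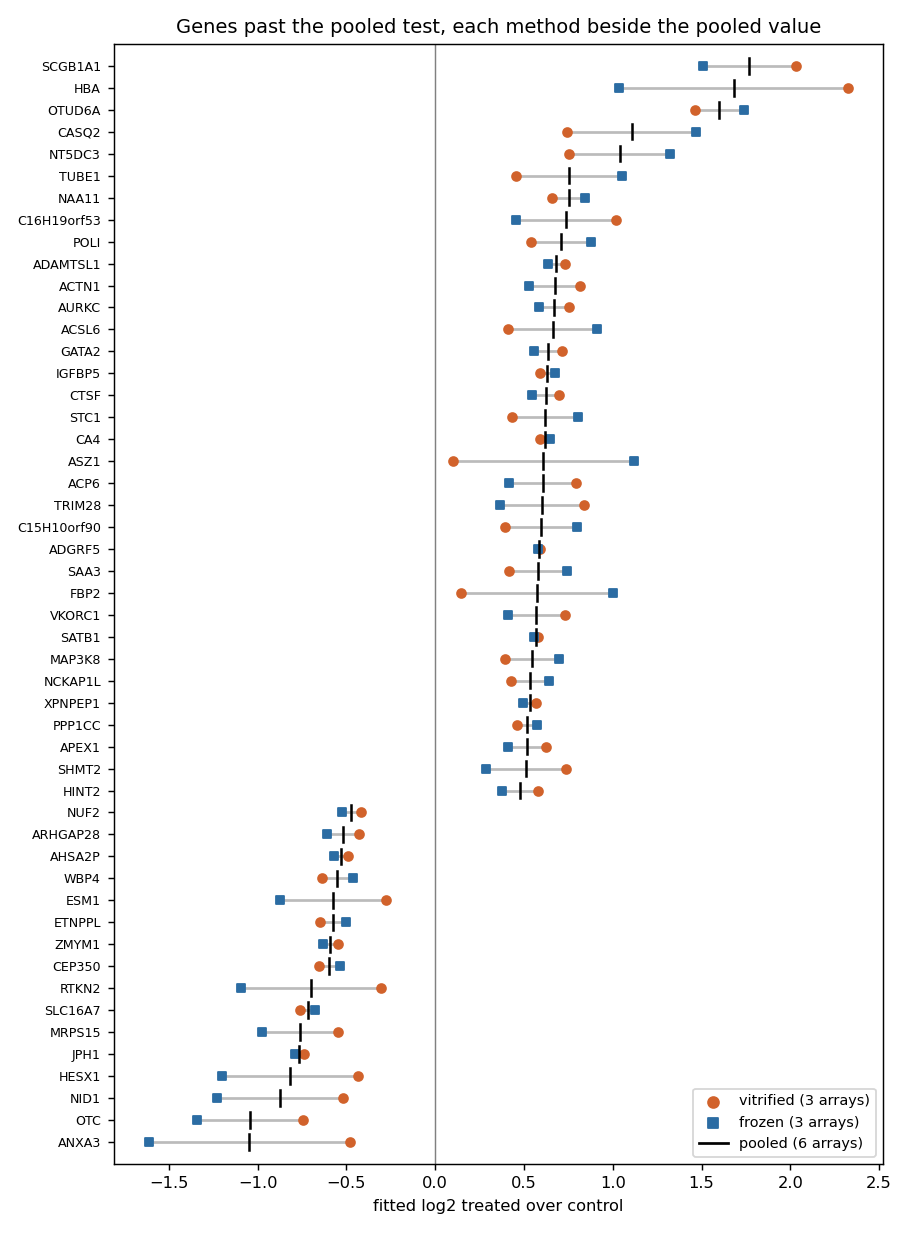
Fitted log2 treated over control for 50 of the 52 genes that passed the pooled test, in vitrified embryos (circles, 3 arrays), frozen embryos (squares, 3 arrays) and pooled (black bars, 6 arrays). Both methods share the control extracts; ADGRF5 and SATB1 had near equal values, while HBA, ASZ1, FBP2, RTKN2 and ANXA3 stood far apart.

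The difference between the methods was tested in the same fit. Vitrified minus frozen gave 0 of 30767 probes past the adjusted threshold (0.0%) and 2320 with an unadjusted p under 0.05 (7.54%), and the smallest adjusted p was 0.223. This does not show that the methods act alike, since the intervals were wide. For HBA the difference was 1.29 (95% interval 0.28 to 2.31), for CASQ2 -0.73 (-1.25 to -0.20), for RTKN2 0.79 (0.43 to 1.15), for ASZ1 -1.02 (-1.43 to -0.60) and for FBP2 -0.86 (-1.23 to -0.48). For OTUD6A it was -0.28 (-0.62 to 0.065), for IGFBP5 -0.085 (-0.42 to 0.24) and for ADGRF5 0.010 (-0.28 to 0.30). PSAT1, an enzyme of serine synthesis, was at 1.52 in vitrified and -0.25 in frozen embryos, which gave a pooled 0.64 ± 0.17 (adjusted p = 0.106) for its brightest probe. Of its 6 probes 4 passed the pooled test, at 0.58 to 0.67, and these start within 64727049 to 64727052 on chromosome 1 and so overlap. APOA2 likewise stood at 0.17 and -1.0, for a pooled -0.42, and EMP1, an epithelial membrane protein, at -0.21 and 1.3.

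With each gene read from its brightest probe, the lists of stress pathways gave no calls, where 0.64% of all genes tested were called. At that share lists of this size would hold few calls or none. Of 14 measured heat shock genes and cytosolic chaperones 9 were below 0, with a median of -0.095. The cochaperones STIP1 and HSPH1 were at -0.41 (adjusted p = 0.0935) and -0.39 (adjusted p = 0.0803), each below 0 on 6 of 6 arrays. Of 16 antioxidant and redox genes 14 were above 0, with a median of 0.14 and a range from -0.097 to 0.29. MGST1 was highest at 0.29 and GCLC, which makes the precursor of glutathione, was at 0.26 (adjusted p = 0.133) and above 0 on 6 of 6 arrays. Of 16 genes of protein folding and stress in the endoplasmic reticulum 11 were above 0, with a median of 0.059; PDIA4 was at 0.54 (adjusted p = 0.0672) and HSPA5 at 0.093. The cold and osmotic list had 8 of 14 above 0, with a median of 0.040, and the water and glycerol channel AQP7 was at -0.35. The apoptosis list had 9 of 13 below 0 and a median of -0.093. In it XIAP, an inhibitor of caspases, was at -0.77 ± 0.12 (adjusted p = 0.052) and below 0 on 6 of 6 arrays. A dimmer probe of XIAP passed limma's test, at -0.73 (adjusted p = 0.04998). BNIP3, a mitochondrial protein induced by low oxygen, was at -0.59.

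**Figure D5:**
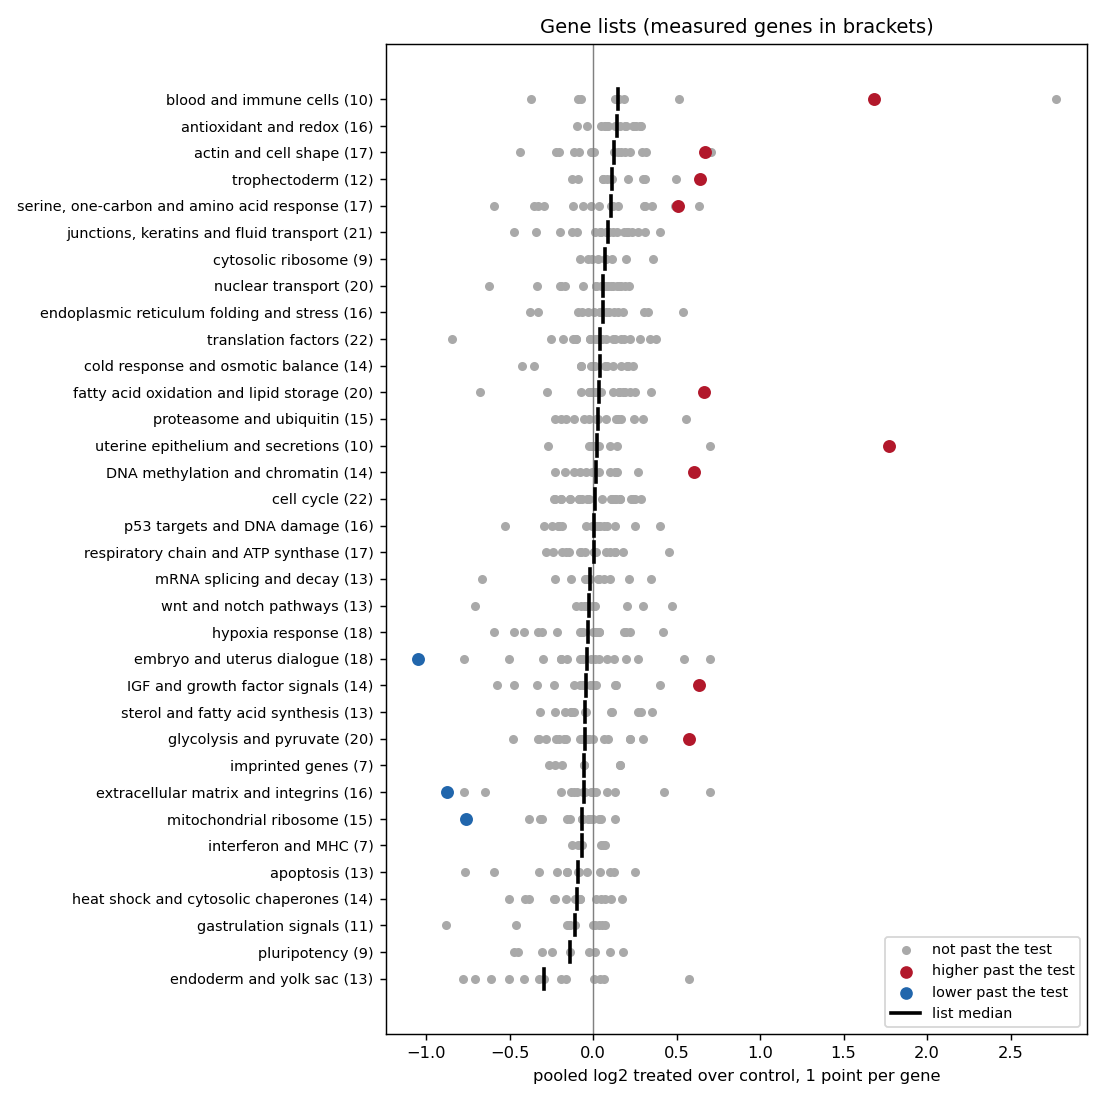
Pooled log2 treated over control for the measured members of 34 gene lists, 1 point per gene, with list medians as black bars and genes past the test in red (higher) or blue (lower). The medians lay between -0.29 (endoderm and yolk sac) and 0.15 (blood and immune cells), and 22 lists held no gene past the test. Of all genes tested 52 of 8121 (0.64%) passed, each read from its brightest probe.

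List medians of other cell processes were near that of all genes, except for junctions, keratins and fluid transport. Over all genes tested 49.8% were above 0, with a median of -0.00036. Of 21 genes of junctions, keratins and fluid transport 16 were above 0, with a median of 0.091; ATP1B1, a subunit of the sodium pump that fills the blastocyst cavity, was at 0.40 (adjusted p = 0.0955), and the adhesion protein EPCAM at -0.48 (adjusted p = 0.078). The respiratory chain (median 0.0063), translation factors (0.044), nuclear transport (0.059), the proteasome and ubiquitin system (0.029), splicing and decay (-0.020) and Wnt and Notch genes (-0.027) had no member past the test. Values close to the threshold were those of RBPJ, the transcription factor of Notch signals, at -0.71 ± 0.11 (adjusted p = 0.0509), and EIF4A2, a helicase of translation, at -0.84 ± 0.17 (adjusted p = 0.0746). Both were above 0 on frozen replicate 1 and below 0 on the other 5 arrays. SMG1, which marks faulty transcripts for decay, showed that pattern too and was at -0.66 (adjusted p = 0.079).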

How the data were processed

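Total RNA (100 ng, per the labels) was hybridised to 6 Agilent 2-colour arrays, the treated sample in Cy5 on replicates 1 and 3 and in Cy3 on replicate 2. The deposited intensities hold mean spot signals and local background medians before normalisation, per the file headers; Agilent Feature Extraction 10.10.1.1 is named in the submitters' processing notes. As an alternative, the deposited log10 ratio (red over green) that the scanner software made, per the file headers, was used, and the deposited flags on background, saturation and outliers and the probe annotation columns are the scanner software's other values.

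Background was corrected with normexp (offset 50) and dye bias with loess, control spots at weight 0, in limma 3.58.1 under R 4.3.3. Outlier spots were left out, spots of a probe averaged, and a probe was tested where 3 or more of 12 channel measurements were well above background. The fit had 1 coefficient per method and a dye term (3 residual degrees of freedom), with eBayes and Benjamini-Hochberg over all probes. The number of arrays limits the precision. The script was tested on simulated data. A symbol from the files or a rabbit gene table (assembly mOryCun1.1) was given to 21326 probes; 1290 matched a gene number only, 289 several genes and 20698 none.

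Per the labels same-numbered arrays share the control extract, which pairs them. Their deviations from the group means correlated at 0.0174, 0.594 and 0.165 for replicates 1 to 3. These deviations were not corrected for the dye, which is swapped in replicate 2 only. The parts of dye and shared control in them cannot be told apart. The members, the 34 gene lists and the tests were chosen with earlier results of these data known. Named were, per direction, the 15 largest called genes with 1 sign on all arrays, called list members or the smallest p values of a list, a fixed set of genes, up to 3 unnamed probes and the genes with the most alike values in both methods. Some genes that the rule takes are not reported here. The other called genes, and probes and genes named beyond the rule, were chosen after their values were seen. Of the fixed genes, C1QTNF1, CIRBP, RBM3, HSPA8 and SOD2 had no tested probe with a symbol, beside those named in the results.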

Additional observations from a re-analysis of the deposited data

Results flagged for a closer look

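With the fitted dye term taken out, 3 of 157 items had 1 array far from the other 5, where chance flags about 1 in 20 groups. AURKC stood at 1.103 on vitrified replicate 1, against 0.46 to 0.70 on the others. TBX3 stood at -1.06 on frozen replicate 3, against -0.52 to -0.24. The unnamed probe A_04_P024771 stood at 0.37 on vitrified replicate 1, against 0.51 to 0.58. The brightest PSAT1 probe was above 0 on every vitrified and below 0 on every frozen array, as was 1 of the other 5 probes, with a difference of 1.77 that did not pass in limma (adjusted p = 0.408).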

How the results depend on the processing

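Against 181 called probes (125 higher, 56 lower), the count was 3 (3 and 0) with the scanner software's log ratio, 115 (42 and 73) with median centring, 16 (12 and 4) with a normexp offset of 1, 4 (4 and 0) with signal required in all 12 channel measurements, which left 19076 probes, 90 (59 and 31) without the dye term and 41 (26 and 15) with slide as a covariate; the cause was not tested. Without a filter on dim probes 80 rose, and with 1 coefficient for treated 79 rose. With an intensity trend and robust spread in limma it was 0 (0 and 0), with 6329 probes at an unadjusted p under 0.05. With a random replicate block it was 428 (260 and 168), and with the replicate block as averages of 3 units 1859 (1028 and 831). At an adjusted p of 0.01 it was 3 (3 and 0) and at 0.1 it was 1593 (848 and 745). Leaving out 1 array gave 4 to 814 calls (4 to 463 higher, 0 to 351 lower). Leaving out both arrays of a number gave 4564 (2475 and 2089) without replicate 1 and 15 (14 and 1) without replicate 3. It gave 160 without replicate 2, of which 5 were lower. That last fit had no dye term, as the treated sample was in Cy5 on every array left, so its counts mix dye and treatment. The fits of 3 averages and those without a replicate number had fewer residual degrees of freedom than the main fit's 3. No called value changed sign in any of these alternatives. The called probes were picked on the same arrays, which favours a stable sign. With genes read from the median of their probes, the medians of 2 lists changed sign, the respiratory chain list to -0.0079 and the splicing and decay list to 0.021.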

Other observations

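Besides HBB2, 4 named genes changed by more than 2-fold in the pooled fit without passing limma's test, and all of them were lower. TFPI, an inhibitor of tissue factor, was at -1.74 ± 0.36 (adjusted p = 0.078) on 4 probes between -1.76 and -1.72. Its ratios were -2.41, -0.67 and -0.30 in vitrified and -0.93, -3.11 and -2.68 in frozen embryos, all below 0 but with a wide spread. ITM2A, a membrane protein, was at -1.56 ± 0.33 (adjusted p = 0.0803), below 0 on 6 of 6 arrays, from -2.60 on frozen replicate 2 to -0.15 on vitrified replicate 3. SLC3A1, part of the cystine and dibasic amino acid transporter, was at -1.08 and AASDHPPT, which arms carrier proteins with phosphopantetheine, at -1.02, each above 0 on 1 array. These genes were named after their values were seen.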
